A study of Homo sapiens with 3 samples.

Results

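The TMEM132 family (TMEM132A, TMEM132B, TMEM132C, TMEM132D and TMEM132E) and the EMILIN family (EMILIN1, EMILIN2 and EMILIN3) were followed by name through a table of ribosome footprints, giving 8 genes of the 63241 listed. TMEM132E and EMILIN2 were chosen on their rise in both mutants against WT, so their values in those comparisons are a description with no test, and the other 6 genes were taken as their paralogs. Ribosome profiling (Ribo-seq) counts footprints, the pieces of mRNA that survive nuclease inside a ribosome, and the study used it to ask whether mutant p53 (mut p53) alters translation. The libraries came from HEK293T cells, an established line of human embryonic kidney origin in which the large T antigen of SV40, itself a p53-binding protein, is present. The constructs encoded p53 as wild-type (WT) or with the G245S or R273H change in the DNA-binding domain, giving 3 groups. Per the methods, the lines were made by lentiviral transduction and puromycin selection, whereas the labels use both stable and transient for these cells and give the wt construct as the treatment of both mutants. Each group was 3 dishes of 1 line, pooled with each other at reverse transcription, so group, line and pool cannot be told apart, and p-values measure only the spread between dishes. Cells with no p53 construct were not analysed here.

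TMEM132 proteins cross the cell membrane once and carry immunoglobulin-like domains on the outer side. They have been proposed to act in cell adhesion, and TMEM132E is known from inherited hearing loss. EMILINs are secreted glycoproteins of the extracellular matrix that deposit where elastin meets microfibrils. They share an N-terminal cysteine-rich EMI domain, and EMILIN1 and EMILIN2 end in a C1q-like domain that EMILIN3 lacks.

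The 9 libraries held 18.7 to 24.6 M counts. The chi-square per degree of freedom between dishes of a group lay at 1.48 to 1.56 where neither was the third dish and at 1.88 to 2.62 otherwise, so the third dishes stood apart and results are also given without them. As a check of the constructs, MDM2, the ubiquitin ligase that p53 induces, was at 860 ± 49.3 CPM (counts scaled to 1 M per library; SD, n = 3 dishes) in WT, 76.8 ± 4.20 in G245S and 76.7 ± 2.94 in R273H. CDKN1A, the p21 cell-cycle inhibitor, was at 61.1 ± 2.27, 16.1 ± 0.345 and 13.9 ± 0.515 CPM. Of the markers listed for epithelium or for the kidney line, KRT8 (32.4 to 44.5 CPM) and KRT18 (108 to 121 CPM) were detected in all libraries. EPCAM (3.28 to 5.35 CPM), CDH1 (5.24 to 8.58 CPM) and PAX2 (5.01 to 8.24 CPM) were lower but present in each. KRT19 was at or near 0, and VIM stood at 875 to 997 CPM. The blood, endothelial and liver markers PTPRC, PECAM1 and ALB did not exceed 0.163 CPM in any library, and of the fibroblast markers COL1A1 was at 25.0 to 34.0 CPM and DCN at 0.108 to 0.420 CPM.

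The sequences upstream of the pair that rose together are shown because both genes had the same pattern over the groups, on which they were chosen. They are given for GRCh38.p14, 5′ to 3′ on the plus strand. The stretch of TMEM132E, chr17:34579332-34579486, ends at the last base before the GENCODE start, which lies ahead of the RefSeq start. That of EMILIN2, chr18:2846756-2847005, ends at the last base before both starts. Capitals mark both matches to CACGTG in TMEM132E. In EMILIN2 they mark a match to CCAAT, which lies on the other strand, and then a match to GGGCGG.
TMEM132E: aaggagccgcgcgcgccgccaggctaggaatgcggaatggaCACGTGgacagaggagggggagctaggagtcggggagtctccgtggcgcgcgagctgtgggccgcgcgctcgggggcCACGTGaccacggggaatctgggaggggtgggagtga
EMILIN2: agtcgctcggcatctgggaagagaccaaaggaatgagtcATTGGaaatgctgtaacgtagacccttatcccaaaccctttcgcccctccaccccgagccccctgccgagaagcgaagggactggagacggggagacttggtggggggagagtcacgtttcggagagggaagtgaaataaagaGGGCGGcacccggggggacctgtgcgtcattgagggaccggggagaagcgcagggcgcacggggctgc
A total of 5 motifs were searched on both strands in the 250 bases before each RefSeq start. CACGTG, the letters that basic helix-loop-helix factors bind, occurred at -209 and -132 of TMEM132E, where 6.34% of the 35116 promoters searched held at least 1 match, and not in EMILIN2. GGGCGG, found in 42.6% of promoters, occurred once in each window, at -34 in TMEM132E (past the stretch shown, because GENCODE starts the gene earlier) and at -68 in EMILIN2. CCAAT, found in 32.0% of promoters, occurred at -211 of EMILIN2 only. Neither window held TATAAA (10.7% of promoters) or a p53 half-site (5.57%). The windows had a GC content of 72.0% and 61.6%, against a median of 58% over all promoters. The other members with a promoter in the table were TMEM132B, TMEM132C and TMEM132D. Over the windows of TMEM132B, GGGCGG occurred at -107 and -81, CCAAT at -237 and -177, and a p53 half-site at -243. Those of TMEM132C and TMEM132D held no match.

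The start codon, where ribosomes begin, is shown with 12 bases before and 15 bases after it for the member of each family with the highest level per kb of coding region and for the pair that rose (GENCODE v44, coding strand, 5′ to 3′, ATG in capitals).
TMEM132E: cccgcctcggccATGgccccggggatgtcg
TMEM132A: tctgtgggaaggATGtgcgcgcggatggcc
EMILIN2: gctgcgcgcgggATGtggcagcccagacgg
EMILIN3: gcgggggccgctATGggccgccgccgcctg
The ATG starts at base 34581077 of chromosome 17 for TMEM132E, 60924634 of chromosome 11 for TMEM132A and 2847189 of chromosome 18 for EMILIN2. That of EMILIN3, on the minus strand, takes up bases 41366632 to 41366634 of chromosome 20. The annotated leader ahead of the ATG measured 1495 bases in TMEM132E, 174 in TMEM132A, 183 in EMILIN2 and 184 in EMILIN3.

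TMEM132E, the member chosen from its family, lies at chr17:34579487-34639318 on the plus strand, with 9 exons and a coding region of 3222 bases at 66.6% GC. Its footprints stood at 6.80, 6.23 and 6.23 CPM in the 3 WT dishes, at 16.0, 16.9 and 16.6 CPM in G245S and at 16.8, 17.3 and 16.0 CPM in R273H. The 6 mutant dishes lay within 15.99 and 17.35 CPM, far above all 3 WT dishes and overlapping each other. The group means were 6.42 ± 0.329 CPM in WT, 16.5 ± 0.454 in G245S and 16.7 ± 0.654 in R273H (SD, n = 3). The log2 fold change against WT was 1.36 ± 0.0884 (SE) in G245S, or 2.56-fold, and 1.38 ± 0.0861 in R273H, or 2.60-fold. These rest on 118 to 137 counts per WT dish and 295 to 429 per mutant dish.

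EMILIN2, the member chosen from the EMILINs, is a matrix protein reported to bind TRAIL death receptors, and its gene spans chr18:2847006-2916003 on the plus strand with 8 exons and a coding region of 3159 bases at 56.2% GC. Its footprints stood at 6.40, 7.08 and 6.91 CPM in WT, at 16.2, 17.7 and 16.1 CPM in G245S and at 15.7, 17.4 and 19.0 CPM in R273H. All 6 mutant dishes again exceeded all 3 WT dishes, and the R273H dishes spread around the G245S range. The means were 6.80 ± 0.352, 16.7 ± 0.888 and 17.3 ± 1.66 CPM. The log2 fold change against WT was 1.29 ± 0.0952 in G245S (2.45-fold) and 1.35 ± 0.0924 in R273H (2.55-fold).

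**Figure D1:**
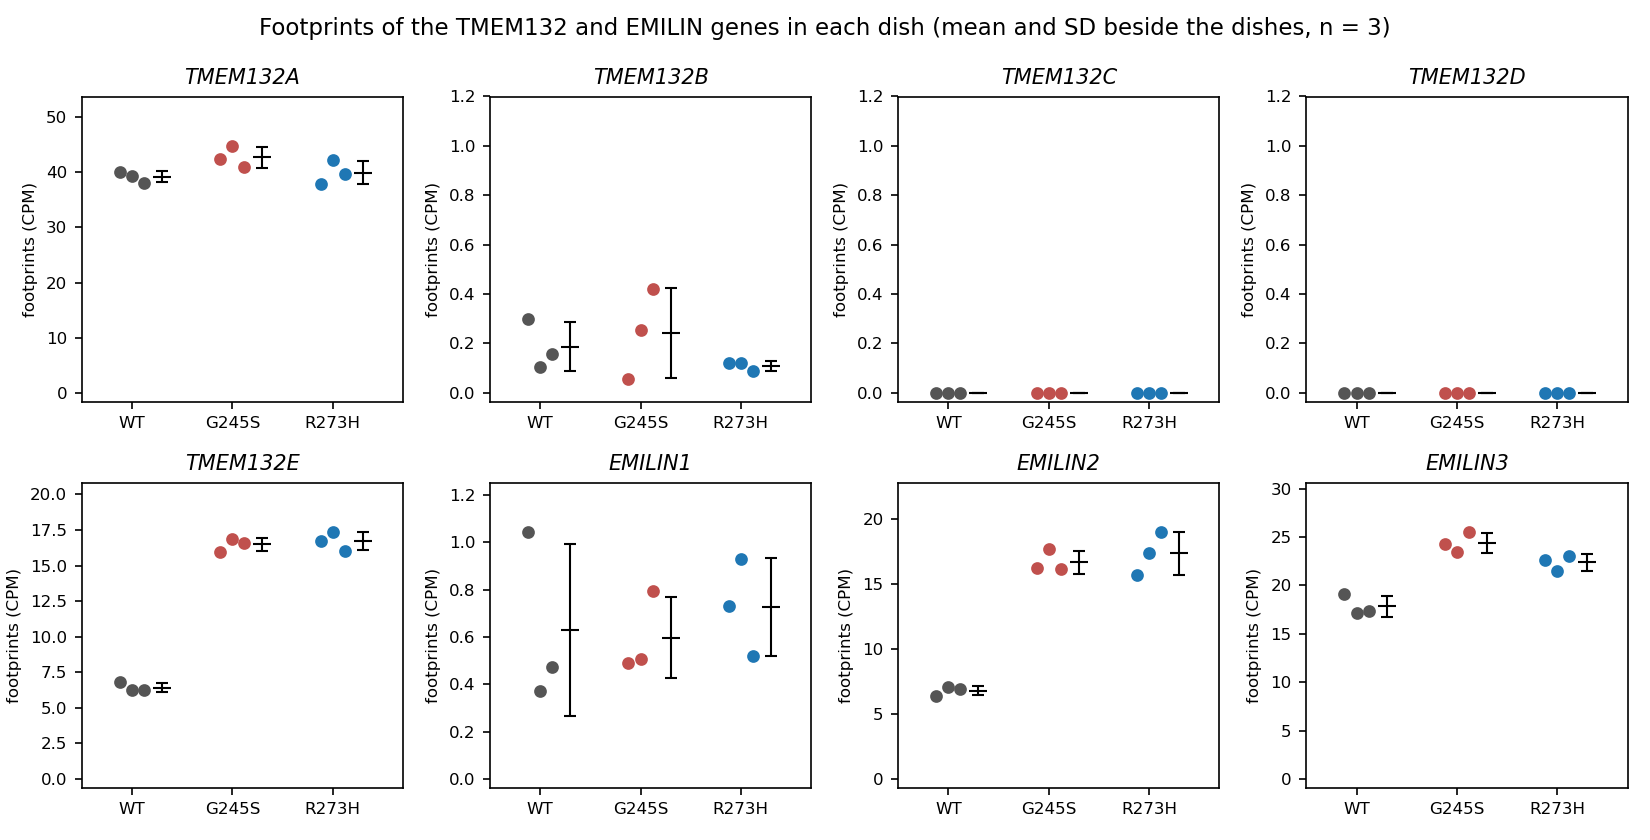
Footprints of each family member (CPM, linear axes from 0 with a scale of their own) in the WT, G245S and R273H groups, 1 point per dish, with the mean and SD of 3 dishes beside the points. TMEM132E and EMILIN2 sit near 6 to 7 CPM in WT and near 16 to 19 CPM in both mutants, EMILIN3 rises less, and TMEM132C and TMEM132D are at 0 in all dishes.

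How this pair stood among other genes is a description of the choice itself. A total of 1517 genes were called higher in both mutants (adjusted p under 0.05 by the edgeR quasi-likelihood test with Benjamini-Hochberg adjustment) with a mean of 100 counts or more and no overlap between WT and mutant dishes. Ordered by the mean log2 fold change over both mutants, TMEM132E came first (1.37) and EMILIN2 second (1.32). The next 3 were FSCN1P1 (1.15), a processed pseudogene of FSCN1 that may share its reads, FSCN1 (1.00), which encodes the actin bundler fascin, and ITPR3 (0.95), a calcium channel of the endoplasmic reticulum. EMILIN3 came at place 221 with 0.39.

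Between the mutants, none of the 5 members tested was called by edgeR. The WT mean is not compared there, although the WT libraries share in the filter, scaling and spread. Among these members DESeq2 gave an adjusted p to TMEM132A alone (0.445), so it could not call the others. At an unadjusted edgeR p under 0.05, 1 of the 5 passed, as did 3120 of all 19820 genes tested. In that comparison 2.59% of all 19820 genes tested were called, 1.86% higher and 0.732% lower in G245S. TMEM132E differed by a log2 fold change of -0.02 (95% confidence interval -0.17 to 0.13) and EMILIN2 by -0.06 (-0.22 to 0.10). Both were chosen on a rise in both mutants, which used these mutant dishes and favours a small difference between them. Their values here are therefore a description. EMILIN3 was the nearest to a difference, with 0.13 (0.00 to 0.25), an unadjusted p of 0.0495 and an adjusted p of 0.316. Its G245S and R273H dishes did not overlap, but how many of all genes do the same was not counted.

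Of the 6 paralogs, 3 passed the filter on low counts, and EMILIN3 was the member called, higher, in each mutant. Over all genes 24.7% were called in G245S against WT (12.6% higher, 12.1% lower) and 28.8% in R273H against WT (14.2% higher, 14.6% lower), so 1 of 3 is near the background. Both comparisons share the WT dishes.

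EMILIN3, an EMILIN without the C1q-like domain, lies at chr20:41359962-41366818 on the minus strand, with 4 exons and a coding region of 2298 bases. It stood at 19.1, 17.1 and 17.4 CPM in WT, at 24.2, 23.5 and 25.5 CPM in G245S and at 22.6, 21.4 and 23.1 CPM in R273H. All mutant dishes were above all WT dishes, and the G245S dishes were above the R273H dishes. How often all genes show such an order was not counted. The log2 fold change was 0.45 ± 0.0667 (SE) in G245S, or 1.37-fold (adjusted p = 8.4e-06), and 0.32 ± 0.0657 in R273H, or 1.25-fold (adjusted p = 0.000413). Its intervals against WT, 0.31 to 0.59 and 0.19 to 0.46, lay below those of EMILIN2 (1.10 to 1.49 and 1.16 to 1.54). EMILIN2 was chosen on its rise in these comparisons, so this order carries the choice. The difference between the genes was not tested.

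TMEM132A, which binds the chaperone HSPA5 and has been tied to Wnt secretion, lies at chr11:60924460-60937159 on the plus strand, with 11 exons and a coding region of 3069 bases. It stood at 40.1, 39.4 and 38.1 CPM in WT, at 42.4, 44.8 and 40.9 CPM in G245S and at 37.9, 42.1 and 39.7 CPM in R273H. The G245S dishes lay just above the WT dishes and the R273H dishes straddled them. The log2 fold change of 0.12 in G245S (95% interval 0.02 to 0.23) missed the threshold (adjusted p = 0.0827). It passed without G245S replicate 3 (0.16, adjusted p = 0.0444) and with dish number as a block in the fit (0.12, adjusted p = 0.0436). In R273H it was 0.03 (-0.08 to 0.13, adjusted p = 0.742).

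EMILIN1, the founding EMILIN and an inhibitor of TGF-beta maturation, lies at chr2:27078615-27086403 on the plus strand, with 8 exons, and gave few footprints. It stood at 1.04, 0.370 and 0.475 CPM in WT, at 0.488, 0.508 and 0.794 CPM in G245S and at 0.732, 0.930 and 0.518 CPM in R273H. The groups overlapped throughout. The log2 fold change was -0.08 in G245S (-0.91 to 0.76, adjusted p = 0.922) and 0.20 in R273H (-0.59 to 0.99, adjusted p = 0.750), so a change of the size seen in EMILIN3 was not detectable at this depth.

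**Figure D2:**
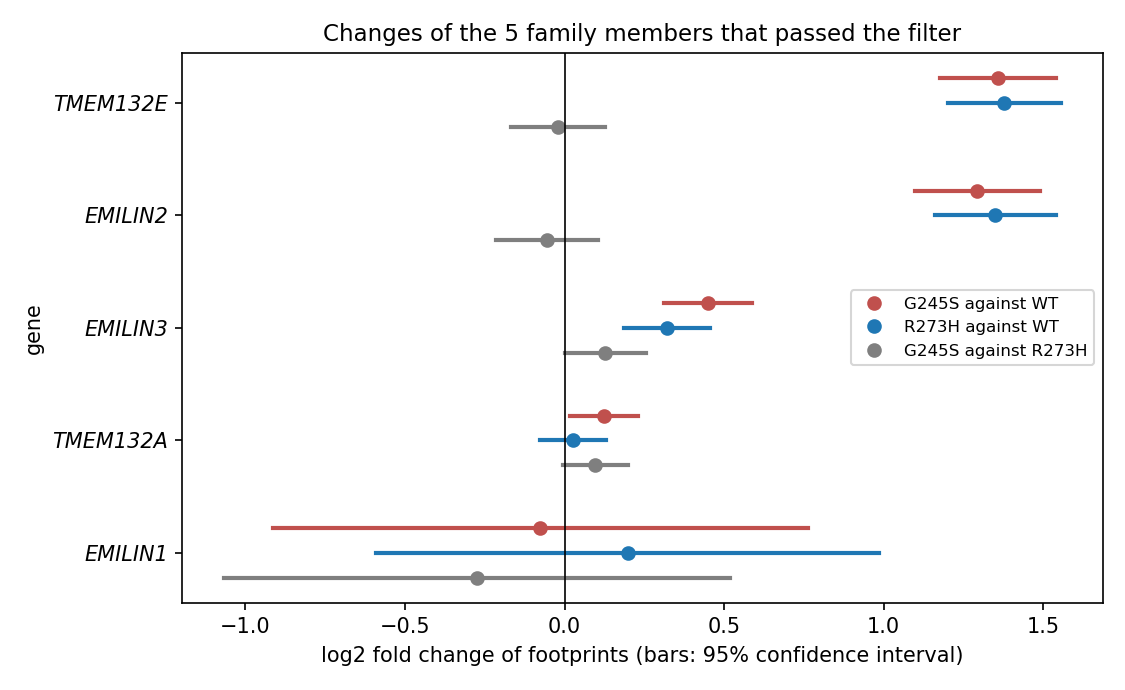
Log2 fold change of footprints (points) with its 95% confidence interval (bars) for the 5 family members that passed the filter, for each mutant against WT and for G245S against R273H. TMEM132E and EMILIN2, chosen on their rise over WT in both mutants, lie near 1.3 to 1.4 against WT and near 0 between mutants. EMILIN1 has intervals wide enough to hold a change of 0.5 either way in the comparisons with WT.

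The other TMEM132 genes lie on chromosome 12 and were scarcely measured. TMEM132B (chr12:125186386-125662377) had 1 to 9 counts per dish and failed the filter. A fit without the filter put TMEM132B at a log2 fold change of 0.39 ± 0.725 (SE) for G245S, with an adjusted p of 0.860, and at -0.74 ± 0.793 for R273H, with an adjusted p of 0.640. TMEM132C (chr12:128267170-128707911) and TMEM132D (chr12:129071725-129904025, minus strand), whose protein has been tied to the actin-regulating WAVE complex, had 0 counts in all 9 libraries. A count of 0 allows up to 0.163 CPM in the shallowest library and 0.0158 CPM over the 190.3 M counts of all libraries, for counting error only.

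Levels can be set beside each other between genes only per length, here as CPM per kb of coding region. In WT, TMEM132A was highest at 12.8 ± 0.324, followed by EMILIN3 at 7.77 ± 0.473, EMILIN2 at 2.15 ± 0.112, TMEM132E at 1.99 ± 0.102, EMILIN1 at 0.206 ± 0.119 and TMEM132B at 0.0576 ± 0.0306. The order per kb of coding region was the same in both mutants. EMILIN2 and TMEM132E, which overlapped between dishes in each group, were neighbours that did not differ beyond their spread (5.28 ± 0.281 against 5.12 ± 0.141 in G245S, and 5.49 ± 0.526 against 5.19 ± 0.203 in R273H). The other neighbours among the 6 measured genes did not overlap in any group. With the union of all exons as the length, both pairs changed places in the mutants: TMEM132E stood above EMILIN2 (2.695 against 2.577 in G245S and 2.73 against 2.68 in R273H) and EMILIN3 above TMEM132A (6.44 against 5.87 and 5.90 against 5.49).

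The distance between each chosen gene and the member of its family with the highest level per kb of coding region was smaller in the mutants. TMEM132A exceeded TMEM132E per kb by 6.41 ± 0.222 times in WT, 2.72 ± 0.113 times in G245S and 2.51 ± 0.115 times in R273H. EMILIN3 exceeded EMILIN2 by 3.63 ± 0.418, 2.02 ± 0.178 and 1.78 ± 0.175 times. As a share of the footprints of its family, TMEM132E went from 14.0% ± 0.389 in WT to 27.7% ± 0.771 in G245S and 29.5% ± 0.965 in R273H. EMILIN2 went from 27.0% ± 2.50 to 40.0% ± 2.25 and 42.8% ± 2.36. The summed family level was 45.8 ± 1.34 CPM in WT, 59.4 ± 2.18 in G245S and 56.7 ± 2.53 in R273H for TMEM132, and 25.3 ± 1.10, 41.7 ± 0.742 and 40.4 ± 1.88 CPM for EMILIN. These sums and shares carry the choice of TMEM132E and EMILIN2 and were not tested.

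**Figure D3:**
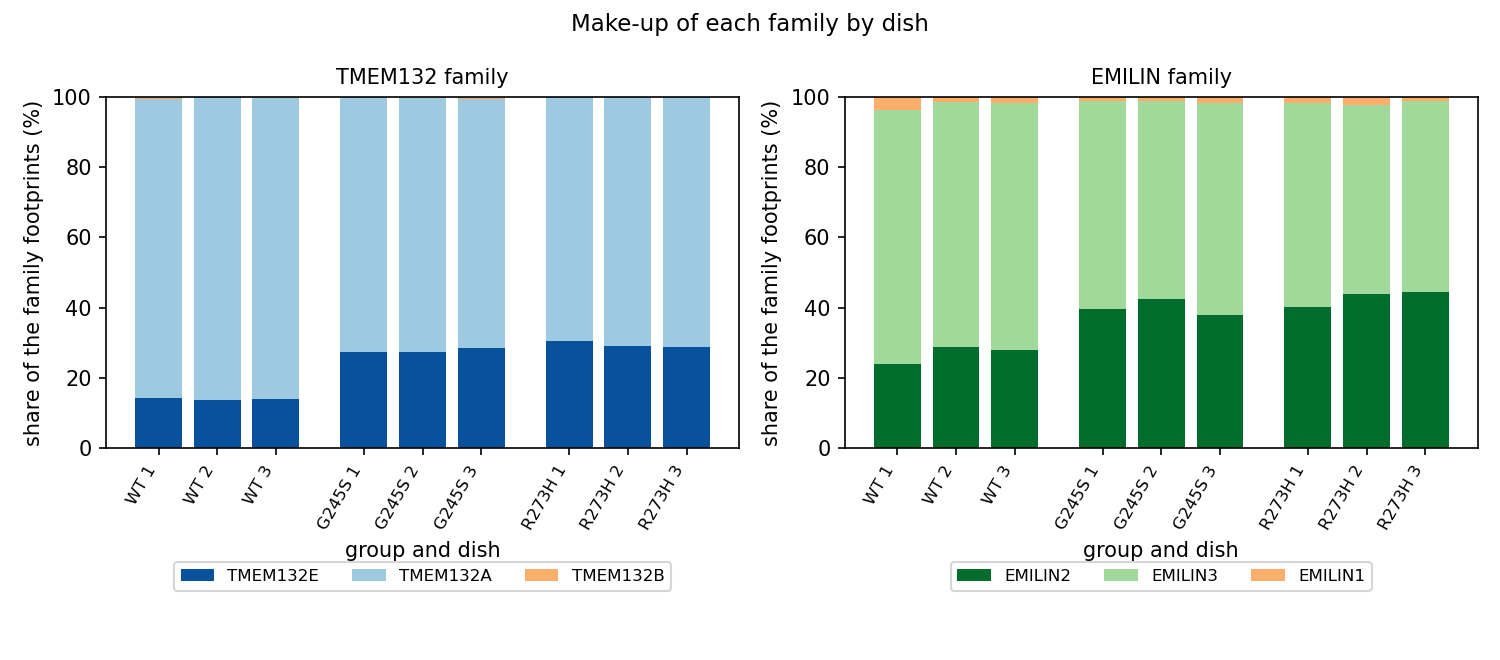
Share of the footprints of each family (%) taken by its members in each dish, as stacked bars for the TMEM132 family (left) and the EMILIN family (right), with TMEM132C and TMEM132D at 0. TMEM132E and EMILIN2, at the bottom of the bars, take a larger share in all 6 mutant dishes than in any WT dish.

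In bulk lysates, fewer cells expressing a gene and less RNA per cell cannot be told apart, and footprint counts do not separate the amount of an mRNA from its translation, since no matched RNA-seq was used here. The log2 level of each gene in a library was taken as its deviation from the mean of that gene over the 9 libraries. This deviation correlated with coding length to a different degree by group (Spearman rho across protein-coding genes -0.18 to -0.14 in WT, -0.01 to 0.12 in G245S and 0.14 to 0.19 in R273H). After removal of the dependence on coding length and GC content from each library, the log2 fold changes against WT were 1.33 and 1.40 for TMEM132E, 1.28 and 1.35 for EMILIN2, and 0.42 and 0.34 for EMILIN3. Without the third dish of every group, they were 1.34 and 1.39, 1.34 and 1.30, and 0.40 and 0.28, and EMILIN3 was called in both mutants (adjusted p = 0.000396 and 0.00649).

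Genes that lie beside or across the members were read next. The whole table was counted by the authors, and whether strand was used is not stated, so reads from overlapping genes on opposite strands cannot be told apart. TMEM132E has 1 overlapping gene in the annotation, on its own strand, which was not among the genes tested. LPIN2, a lipin phosphatidate phosphatase that overlaps EMILIN2 on the other strand, stood at 7.69 CPM in WT and at 7.25 and 8.02 CPM in G245S and R273H. Its log2 fold change was -0.09 for G245S (adjusted p = 0.599) and 0.06 for R273H (adjusted p = 0.718). LPIN3, a lipin that overlaps EMILIN3 on the other strand, fell from 15.1 CPM in WT to 8.80 and 8.94 CPM, a log2 fold change of -0.78 and -0.76 (adjusted p = 3.1e-07 and 2.5e-07), whereas EMILIN3 rose.

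Within 500 kb of TMEM132E, 7 genes passed the filter, all beyond its 3′ end, and in each mutant 1 was called higher and 1 lower. Named after their values were seen, these were NLE1 (log2 fold change 0.17 and 0.22) and ZNF830 (-0.17 and -0.23). In G245S the call of ZNF830 (adjusted p = 0.0420) was lost in 9 of 17 alternatives, 5 of them leaving out WT replicate 1, WT replicate 2, G245S replicate 1, G245S replicate 2 or R273H replicate 2 (adjusted p up to 0.182). That of NLE1 was lost without the third dishes (adjusted p = 0.0503). The nearest, CCT6B, began 289 kb away and had a log2 fold change of -0.27 for G245S (adjusted p = 0.296) and -0.39 for R273H (adjusted p = 0.092). The 7 values lay between -0.27 and 0.17 in G245S and between -0.59 and 0.22 in R273H.

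Within 500 kb of EMILIN2, 13 genes passed the filter, of which 0 rose and 2 fell in G245S, while 3 rose and 3 fell in R273H (edgeR). At an unadjusted p under 0.05, 1 was higher in G245S, and DESeq2 called 0 higher there. Of all 19820 genes tested, 7083 passed that unadjusted level in G245S in either direction. The edgeR shares over all genes tested were 12.6% higher and 12.1% lower in G245S, and 14.2% and 14.6% in R273H. SMCHD1, a chromatin protein 42.0 kb before EMILIN2, had a log2 fold change of 0.07 for G245S (adjusted p = 0.152) and 0.12 for R273H (adjusted p = 0.009). CHORDC1P4, a pseudogene 29.5 kb after EMILIN2, is the nearest tested gene on the far side and stood at 0.20 for G245S (adjusted p = 0.136) and 0.34 for R273H (adjusted p = 0.00579). The largest value, 1.06 in R273H against 0.08 in G245S, belonged to an unnamed processed pseudogene, singled out after its values were seen, and no neighbour of either gene was called in both mutants with a change over 1 in size.

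**Figure D4:**
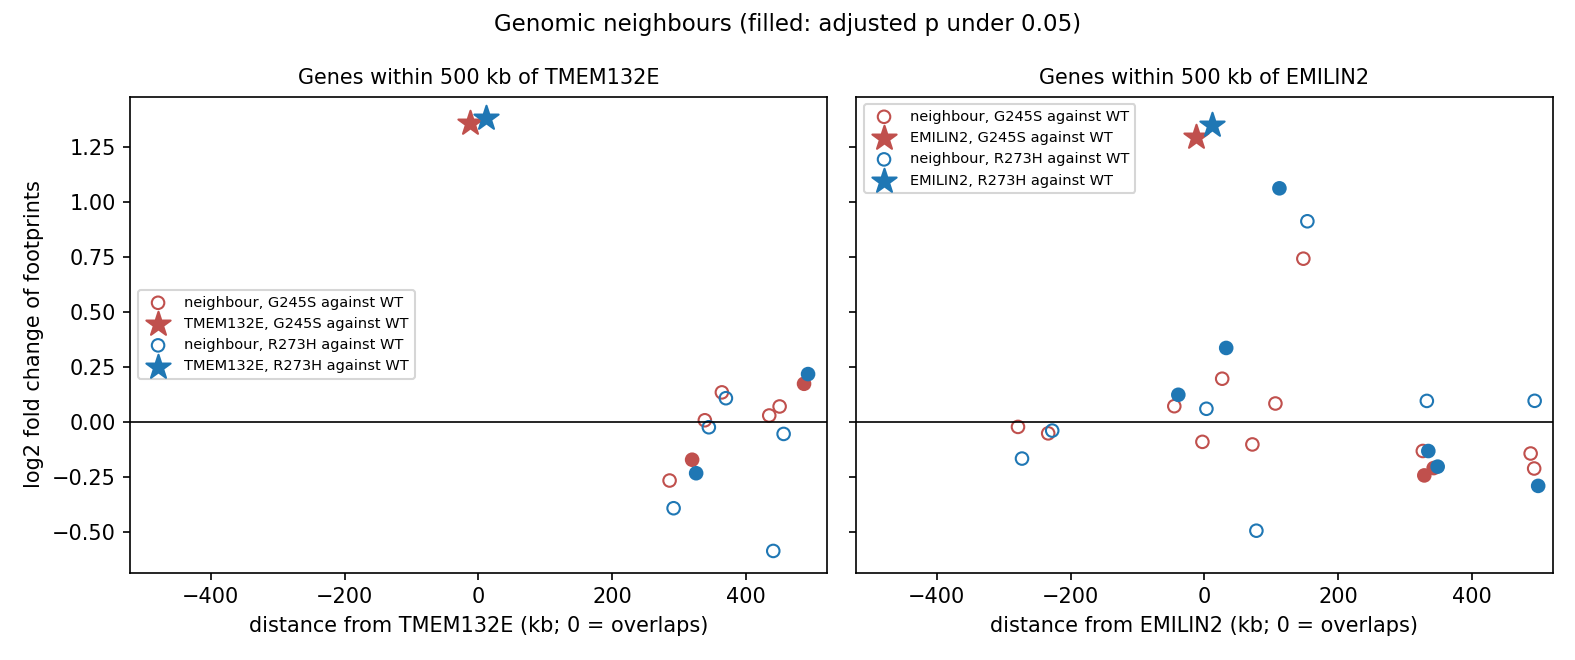
Log2 fold change of footprints against WT for genes within 500 kb of TMEM132E (left) and EMILIN2 (right), by distance from the gene in kb (negative before its start), with filled circles for an adjusted p under 0.05 and stars for the member itself. The stars near 1.3 to 1.4 stand above every neighbour, which carries the choice of both genes on their rise. The called neighbours of TMEM132E lie within -0.23 and 0.22.

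The genes whose pattern was most like each chosen gene were taken by the Pearson correlation of log2 CPM over the 9 libraries among the 12656 genes that averaged 100 counts or more. These are descriptions, since the libraries share their groups. For TMEM132E they were ITPR3 (r = 0.997), the fatty acid synthesis enzyme ACACA (0.996), the chromosome maintenance protein SMC6 (0.995), FSCN1 (0.995) and the mitochondrial folate enzyme ALDH1L2 (0.993). For EMILIN2 they were the nuclear pore subunit NUP205 (r = 0.995), the axonal motor KIF1A (0.994), GEMIN5 (0.993), STOM (0.992) and the fatty acid oxidation subunit HADHA (0.992). TMEM132E and EMILIN2, both chosen on a rise in each mutant and so alike by that choice, correlated with each other at 0.984. This was place 33 and place 30 in the lists of TMEM132E and EMILIN2. By Spearman correlation they fell to places 1405 and 1477 (rho = 0.667), as the order of dishes within groups then counts. The genes listed above then lay between places 88 (SMC6) and 1678 (ACACA) for TMEM132E. For EMILIN2 they lay between places 19 (STOM) and 494 (GEMIN5). Their log2 fold changes in G245S and R273H ran from 0.13 and 0.15 (HADHA) to 1.01 and 0.99 (FSCN1), all below those of the chosen pair.

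Relatives and partners of the families were read from lists of textbook members, each described by its counts beside the background percentages given above. Of 10 other genes with an EMI domain, 6 passed the filter, of which 1 rose and 1 fell in G245S, while 1 rose and 0 fell in R273H, with median log2 fold changes of 0.08 and -0.04 (0.0041 without WT replicate 3 and 0.076 without WT replicate 1). MEGF10, a phagocytic receptor called lower in G245S (-0.56, adjusted p = 0.0144), was named after its values were seen, and its call was lost by DESeq2 and without WT replicate 3 or G245S replicate 2 (adjusted p up to 0.0845). COL26A1, an EMI-domain collagen, was the gene called in both, from 3.46 ± 0.790 CPM in WT to 5.11 ± 0.473 and 5.19 ± 0.463 CPM. Its log2 fold change was 0.56 (adjusted p = 0.0091) and 0.58 (adjusted p = 0.0042), and the call in G245S was lost without WT replicate 3 and without the third dishes (adjusted p up to 0.0738). Of 25 other genes with a C1q-like domain, 7 passed the filter and 0 were called in either mutant by edgeR or DESeq2, with median log2 fold changes of -0.14 and 0.10. The medians turned sign without WT replicate 1 (0.036 in G245S) and without WT replicate 3 (-0.085 in R273H), and 1 gene was called higher in G245S without G245S replicate 2. At an unadjusted p under 0.05, 1 was higher in G245S and 0 in R273H. Of all 19820 genes tested, 7083 in G245S and 7697 in R273H passed that level in either direction.

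Of 21 genes of the elastic fibre, the structure in which EMILINs sit, 16 passed the filter. In G245S 6 rose and 1 fell (median log2 fold change 0.11, all genes 0.00), and in R273H 5 rose and 2 fell (median 0.08, all genes 0.00). The R273H median was 0.049 without WT replicate 3 and 0.14 without WT replicate 1. LOX, the lysyl oxidase that crosslinks elastin, rose from 17.0 ± 0.971 CPM in WT to 22.6 ± 1.16 in G245S and 22.5 ± 0.787 in R273H, by a log2 fold change of 0.41 and 0.40 (adjusted p = 5.2e-05 and 3.0e-05). MFAP2, a microfibril protein, rose by 0.43 and 0.37 (adjusted p = 3.5e-05 and 0.000145).

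The fibrillin FBN2, a backbone of microfibrils, rose by 0.29 for G245S (adjusted p = 1.2e-08) and 0.15 for R273H (adjusted p = 0.000258). It was also called between the mutants, higher in G245S by 0.14 (adjusted p = 0.00483). LTBP3, which holds latent TGF-beta, fell, with a log2 fold change of -0.28 and -0.34 (adjusted p = 0.00284 and 0.000204). Elastin itself (ELN) failed the filter, at 0.102 to 0.130 CPM on average per group.

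Of 9 genes tied to EMILIN function (TGF-beta ligands, the protease FURIN, integrins and TRAIL receptors), 8 passed the filter, of which 2 rose and 1 fell in G245S, while 3 rose and 1 fell in R273H. The median log2 fold change was 0.08 and 0.11, and 0.010 and 0.040 without WT replicate 2. Without G245S replicate 1, 1 rose in G245S, and without R273H replicate 3, 1 rose in R273H. The integrin subunit ITGA4, part of a receptor for EMILIN1, rose from 14.0 ± 0.792 CPM in WT to 20.8 ± 0.256 and 19.2 ± 0.611 CPM, by 0.57 and 0.45 (adjusted p = 4.9e-07 and 1.1e-05). TGFB2 rose by 0.48 in both (adjusted p = 0.0227 and 0.0179), and each call was lost by DESeq2, without WT replicate 3 and without the third dishes, that in G245S also without G245S replicate 1 and that in R273H also without R273H replicate 3 (adjusted p up to 0.194 and 0.218). TNFRSF10B, a TRAIL receptor and known p53 target, fell, with a log2 fold change of -0.85 and -0.93 (adjusted p = 2.1e-14 and 1.5e-15), in the opposite direction to EMILIN2.

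Of 11 genes tied to TMEM132 proteins (HSPA5, the Wnt carrier WLS and the WAVE complex), all passed the filter, of which 5 rose and 2 fell in G245S, while 4 rose and 1 fell in R273H. The median log2 fold change was 0.13 and 0.09, and without WT replicate 2, 3 rose in each mutant. CYFIP2, a WAVE complex subunit and known p53 target, fell from 176 ± 9.43 CPM in WT to 35.2 ± 1.70 and 32.1 ± 1.67 CPM, a log2 fold change of -2.32 and -2.45 (adjusted p = 3.7e-24 and 6.5e-25). Its paralog CYFIP1 rose by 0.24 and 0.19 (adjusted p = 2.1e-05 and 0.000169). WLS rose by 0.15 and 0.19 (adjusted p = 0.000259 and 1.1e-05).

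NCKAP1, a further WAVE subunit, rose by 0.13 and 0.17 (adjusted p = 0.0196 and 0.00156), and its call in G245S was lost without WT replicate 1, WT replicate 2 or G245S replicate 3 (adjusted p up to 0.0994). HSPA5, the chaperone that TMEM132A binds, was not called (-0.0037 and 0.016, adjusted p = 0.932 and 0.643). Between the mutants, BRK1 was the list member called, lower in G245S by a log2 fold change of -0.17 (adjusted p = 0.0417), a call lost without the third dishes and without G245S replicate 2 or 3 or any 1 R273H dish (adjusted p up to 0.200).

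**Figure D5:**
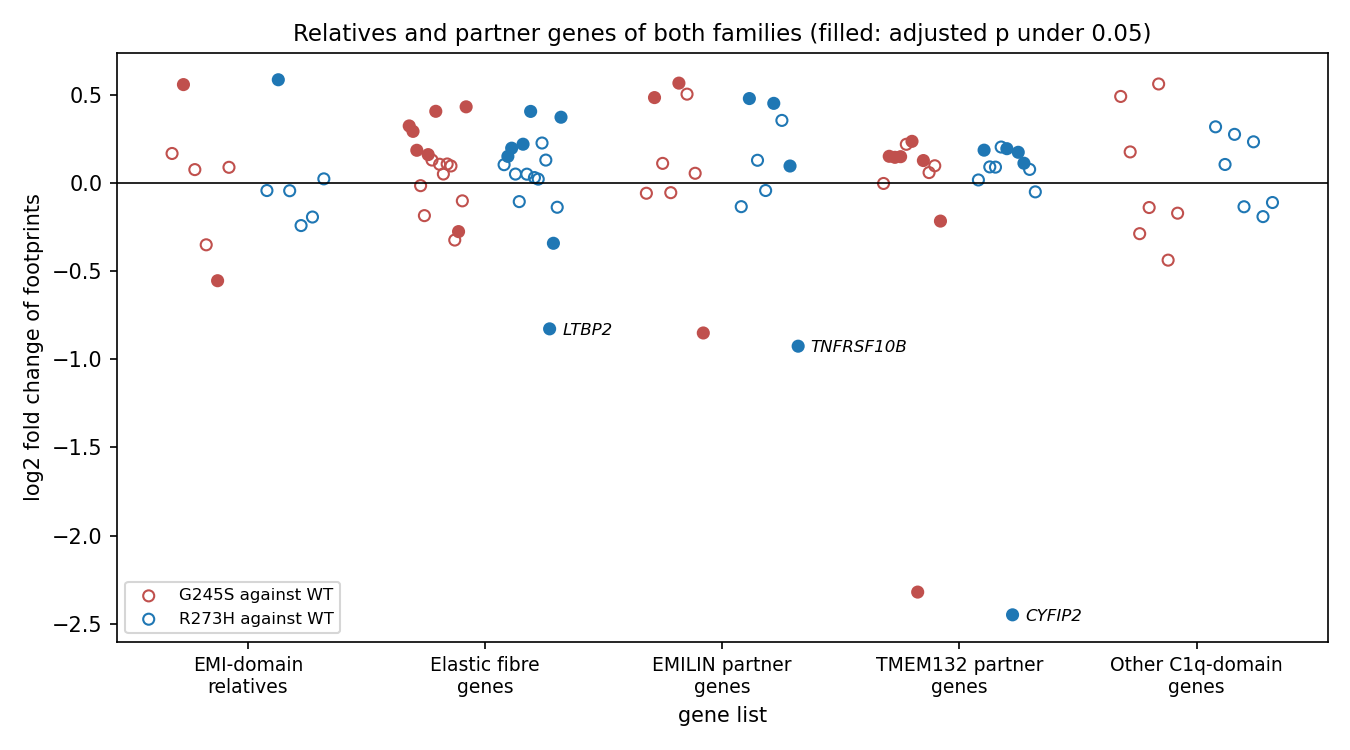
Log2 fold change of footprints against WT for the genes of each list that passed the filter, in G245S and R273H, with filled circles for an adjusted p under 0.05. Most genes lie between -0.5 and 0.6, and CYFIP2 and TNFRSF10B lie below in both mutants.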

How the data were processed

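Ribo-seq reads were processed by the authors (Trim Galore, a filter for rRNA, STAR alignment to GRCh38), who deposited a table of expected counts: footprints assigned to each gene by estimation, fractions included, with no normalization. The counting tool, annotation release, strand setting and any restriction to coding regions are not given in the sources used here. EMILIN1, TMEM132C and TMEM132D had whole counts in all 9 libraries, and the largest distance from a whole number among members was 0.413, in EMILIN2. Coordinates come from GENCODE v44 and promoters from RefSeq.

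Expected counts were rounded and fitted with edgeR 4.0.16 in R 4.3.3 (TMM, filterByExpr, glmQLFit robust, glmQLFTest, two-sided), in 1 fit of 9 libraries with group as the term. Calls used adjusted p under 0.05 (Benjamini-Hochberg, 19820 genes tested). filterByExpr required about 0.5 CPM in 3 libraries. The fit was tested on simulated counts. Alternatives covered normalization, filter, DESeq2 1.42.0, the libraries in the fit, dish number as a block, a length and GC trend, and each dish left out. The fit without the third dishes was chosen after seeing the data.

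The members and lists were chosen with earlier results of these data known. Named were all members, up to 4 genes of each list called in both mutants, overlapping and nearest neighbours, the next 3 genes in order of rise, the 5 genes most like each chosen gene, MDM2 and CDKN1A. A planned comparison of protein sequences was not done here.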

Additional observations from a re-analysis of the deposited data

How the results depend on the processing

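Over 17 alternatives, TMEM132E, EMILIN2 and EMILIN3 kept their direction against WT, and EMILIN3 its call. Genes called numbered 3564 to 5779 in G245S and 4043 to 6547 in R273H against WT, against 4900 and 5707. Dish numbers were not taken to pair the dishes: the deviations of same-numbered dishes correlated at 0.04 to 0.23, over 0.1 in 4 of 9 pairs, although in 17 of 18 comparisons a dish correlated best with its own number. With the replicate block, TMEM132A was also called in G245S (adjusted p = 0.0436), giving 2 paralogs, and 1262 genes were called between the mutants against 513. That count was 1027 without the third dishes and 168 to 725 with 1 dish left out. Paralogs called in G245S numbered 1 to 2 with 1 dish left out. The cause was not tested.

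Among members, signs turned only for differences whose intervals held 0. With 1 dish left out, EMILIN1 lay between -0.34 and 0.51 in G245S (positive without WT replicate 1, G245S replicate 1 at 0.047 or G245S replicate 2 at 0.032) and between -0.067 and 0.78 in R273H (negative without WT replicate 2 or R273H replicate 2, at -0.018). TMEM132A in R273H lay between -0.014 (without R273H replicate 2) and 0.063. Between the mutants TMEM132E lay between -0.048 and 0.0076 (positive without G245S replicate 1, at 0.0013, or R273H replicate 2), and EMILIN2 between -0.12 and 0.013 (positive without R273H replicate 3), and at 0.038 without the third dishes. Depth limited EMILIN1 (7 to 23 counts per dish), and TMEM132B, TMEM132C and TMEM132D failed the filter.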
